A study of Bos taurus with 179 samples.

Results

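Cytochrome c oxidase, complex IV of the mitochondrial respiratory chain, passes electrons from cytochrome c to oxygen and pumps protons across the inner membrane. Its catalytic core is encoded by the mitochondrial genome, and the surrounding subunits are encoded in the nucleus, translated in the cytosol and imported. An oocyte builds up its mitochondria during growth, and the embryo inherits them. Described here were 9 nuclear-encoded genes of this complex in single growing oocytes of cattle: *COX5A*, *COX5B*, *COX6A1*, *COX6B1*, *COX6C*, *COX7A2*, *COX7A2L*, *COX7B* and *COX8A*. They were chosen by symbol, and each symbol was paired with 1 gene ID of the count table, 9 of 21218 IDs in all. The pairing came from a list of genes that the study found in every size group, so the detection of a member in every group is not a finding.

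The study asked how the transcriptome changes while the bovine oocyte grows. Oocytes of *Bos taurus* were recovered from abattoir ovaries, denuded of their follicular cells, measured and sequenced one by one from polyadenylated RNA. They were washed in a medium that held cilostamide, and no group had a treatment of its own or a genetic change. The oocytes of the study's final set fell into 8 groups by diameter: 21 oocytes at < 60 µm, 25 at 60–69, 23 at 70–79, 24 at 80–89, 21 at 90–99, 18 at 100–109, 19 at 110–119 and 14 at > 120 µm. Libraries were made in 2 replicates, replicate 1 with 97 oocytes and reads of 150 bp and replicate 2 with 68 oocytes and reads of 75 bp, so the library batch and the read length cannot be told apart. Fully grown oocytes were aspirated from visible follicles and smaller ones were freed by slicing the cortex, so the way of recovery and the size cannot be told apart. The animals were not named and their ages not given, and oocytes of 1 group may share a cow or an ovary. The raw counts on genes ranged from 277126 to 8038061 per oocyte. For the tests, counts were added up over the oocytes of a size group within a replicate, giving 16 sums, 2 per size group. Levels are given as CPM, the counts of a gene relative to the library total, after TMM scaling, and, since no transcript lengths were used, a gene's levels were compared between oocytes and not with those of other genes.

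Every member had at least 1 count in every oocyte of the set. Together the members took between 0.0754% and 0.554% of an oocyte's counts, with a median of 0.237%. Among the markers used to check the cell type, the oocyte genes *BMP15*, *BTG4*, *CPEB1* and *BCAR4* had counts in every oocyte and *ACTL8* in 116. The median of the 14 somatic marker IDs summed lay between 4.14 and 9.64 CPM per oocyte over the size groups. That of the 5 oocyte markers summed lay between 4598 and 9022 CPM. The sums do not weigh oocytes equally. In the sum of 100–109 µm of replicate 1, a single oocyte held 52.9% of the counts, and the sum of < 60 µm of replicate 1 came from 3 oocytes, of which 1 held 46.6%.

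On the 16 sums, with the replicate as a block, edgeR called 2 of 9 members for a change with oocyte size, in opposite directions. The shares of all genes called were 33% for the slope on diameter, 14.8% to 110 µm and above and 19.2% from < 60 to > 120 µm. *COX5A* (ENSBTAG00000017267), which encodes a subunit on the matrix side of the enzyme, rose late in growth, by 1.06 ± 0.18 on the log2 scale (2.08-fold, ± SE) from 70–109 µm to 110 µm and above. *COX8A* (ENSBTAG00000052272), the small single-span subunit that most tissues use in place of a muscle form, fell by 0.63 ± 0.18 over the same interval, to a 0.65-fold level. None of the other 7 members passed that edgeR test in a comparison of sizes over both replicates, and DESeq2 on the same sums also called *COX6C* and *COX7B*. Without the replicate as a block, neither *COX5A* nor *COX8A* was called to 110 µm and above. With single oocytes as units, 6 members were, beside 46.4% of the genes tested.

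*COX5A* was lower in small oocytes than in the largest. In replicate 1, its levels from < 60 to > 120 µm were 201.3, 164.7, 130.5, 209.8, 214.4, 188.7, 561.7 and 317.05 CPM. In replicate 2 they were 119.5, 127.3, 123.4, 119.1, 192.5, 210.4, 276.6 and 302.6 CPM. In both replicates, the sums of the groups at 110–119 and > 120 µm were above all 6 sums of smaller oocytes. The order of the groups with the mean of each replicate removed was 70–79, 60–69, < 60, 80–89, 100–109, 90–99, > 120 and 110–119 µm, from lowest to highest. Of the 7 pairs of neighbours in that order, 5 overlapped between their 2 replicates, and the exceptions were 70–79 against 60–69 µm and 90–99 against > 120 µm.

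Single oocytes were also highest in the large groups. In replicate 1, the lowest, median and highest *COX5A* levels were 39.2, 138.6 and 244.4 CPM at 60–69 µm, 59.2, 128.2 and 211.7 CPM at 70–79 µm, 163.1, 202.4 and 355.01 CPM at 100–109 µm, 367.9, 517.5 and 1004 CPM at 110–119 µm and 217.8, 402.97 and 1084 CPM at > 120 µm. The 12 oocytes at 110–119 µm of that replicate were all above the highest of the 11 at 100–109 µm, but not above every smaller oocyte, since the 16 at 80–89 µm reached 374.99 CPM. In replicate 2, the levels were 83.1, 124.9 and 211.7 CPM at < 60 µm, 70.6, 123.9 and 179.8 CPM at 80–89 µm, 162.3, 211.3 and 291.9 CPM at 100–109 µm, 208.5, 252.7 and 383.1 CPM at 110–119 µm and 222.3, 234.4 and 421.8 CPM at > 120 µm, and neighbouring groups overlapped. Pearson's r between log2(CPM + 1) and diameter, taken over the 97 and 68 oocytes with the mean of each replicate removed, was 0.65, and Spearman's rho was 0.67. The r was 0.67 in replicate 1 and 0.73 in replicate 2, and 0.64 when the 2 oocytes most distant from the median diameter were dropped. These coefficients are descriptions, since oocytes of 1 library batch, and perhaps of 1 animal, are not independent.

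**Figure D1:**
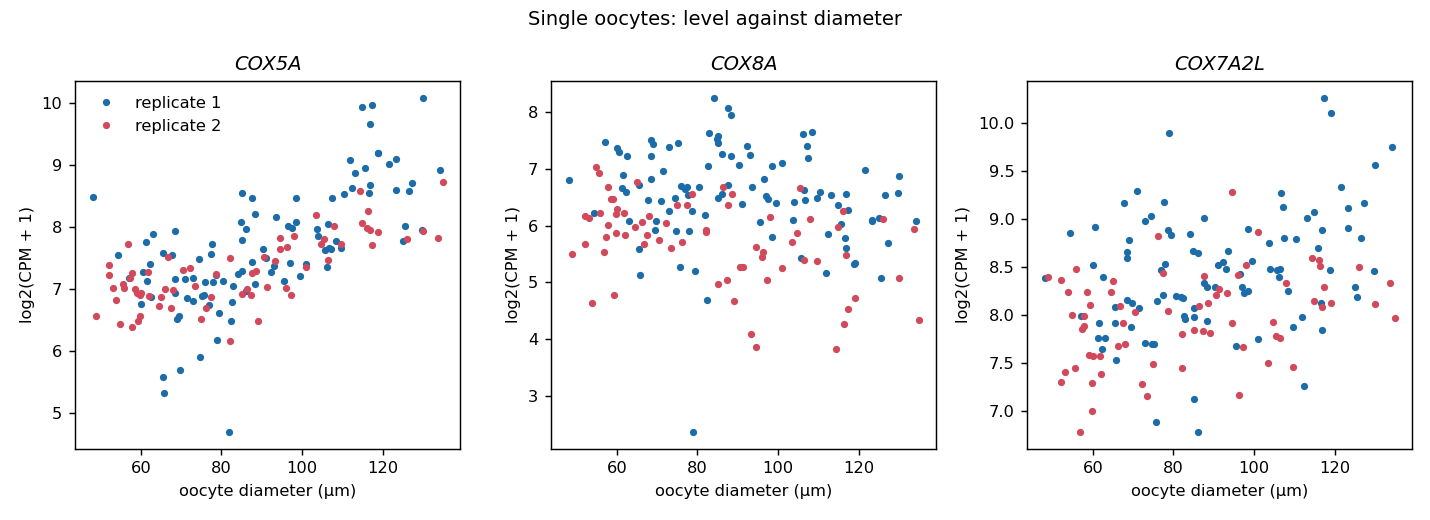
Level of *COX5A*, *COX8A* and *COX7A2L*, as log2(CPM + 1), against oocyte diameter in µm, each point 1 oocyte (blue, replicate 1; red, replicate 2). *COX5A* points climb above 110 µm (r = 0.65), *COX8A* points drift down (r = −0.27) with replicate 1 mostly above replicate 2, and *COX7A2L* points drift up (r = 0.33) with a wide spread.

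Tested over all 14087 genes that passed the filter on low counts, the slope of *COX5A* on diameter was 0.19 ± 0.037 log2 units per 10 µm (adjusted p = 4.7e-04, from the quasi-likelihood test of edgeR after Benjamini-Hochberg adjustment). It was 0.18 ± 0.053 within replicate 1 (adjusted p = 0.017), where 23.8% of all genes passed, and 0.20 ± 0.053 within replicate 2 (adjusted p = 0.014), where 14.4% did. The rise from 70–109 µm to 110 µm and above had an adjusted p of 8.7e-04 by the same edgeR test, and the value stayed between 0.86 and 1.28 when each sum was left out in turn. From < 60 to > 120 µm the rise was 0.99 ± 0.30 (edgeR adjusted p = 0.029), a call that was lost without either sum of < 60 µm or either sum of > 120 µm, with an adjusted p of up to 0.128. Without the replicate as a block, the slope still passed (edgeR adjusted p = 0.011), and the rises to 110 µm and above and from < 60 to > 120 µm did not (edgeR adjusted p = 0.144 and 0.356). No change was called from < 70 to 70–109 µm, where the log2 difference was 0.18 ± 0.19. CPM are shares of the captured RNA, so a change in *COX5A* molecules and a change in the other RNA of the oocyte cannot be told apart.

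The median of the summed somatic markers differed between size groups, which was not tested. Per oocyte it was 4.14 CPM at < 60 µm, 8.56 CPM at 80–89 µm, 5.52 CPM at 90–99 µm and 9.64 CPM at > 120 µm. Single oocytes lay between 0 and 39.1 CPM. Of the 14 IDs, 5 passed the filter, and of these edgeR called 1 up and 1 down for the slope on diameter, beside 14.8% and 18.1% of all genes. *COL1A2* had counts in 143 oocytes with a median of 4.48 CPM, and the other 13 IDs, among them *FSHR* of granulosa cells, had a median of 0 CPM. The other collagen genes, *COL1A1* and *COL3A1*, had counts in 2 and 4 oocytes. Over the 97 and 68 oocytes, the summed markers had an r of 0.25 with *COX5A*, −0.15 with *COX8A* and between −0.11 and 0.06 with the other members. Their part in the result was not tested.

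*COX8A* was lower in large oocytes in both replicates. In replicate 1, its levels from < 60 to > 120 µm were 115.9, 114.8, 79.9, 146.7, 105.05, 95.6, 62.4 and 59.3 CPM. In replicate 2 they were 71.05, 63.6, 66.7, 62.8, 44.98, 52.9, 39.6 and 42.9 CPM. In each replicate, the sums at 110–119 and > 120 µm were the 2 lowest, and in replicate 1 the highest sum was that of 80–89 µm. From lowest to highest, the groups stood in the order 110–119, > 120, 90–99, 100–109, 70–79, 60–69, < 60 and 80–89 µm, and 5 of 7 neighbours overlapped between replicates. The gap between > 120 and 90–99 µm was 1 of the 2 that did not overlap.

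Single oocytes had a wide spread of *COX8A*. In replicate 1, the lowest, median and highest levels were 24.7, 150.9 and 304.8 CPM at 80–89 µm, 41.996, 98.6 and 200.1 CPM at 100–109 µm and 34.7, 60.7 and 95.5 CPM at 110–119 µm. In replicate 2, they were 24.04, 70.4 and 130.1 CPM at < 60 µm, 37.1, 51.5 and 100.99 CPM at 100–109 µm and 13.2, 25.3 and 75.7 CPM at 110–119 µm. The groups overlapped in both replicates. The r with diameter was −0.27 over all oocytes and rho was −0.31. The r was −0.18 in replicate 1, −0.42 in replicate 2, and −0.25 when the 2 most distant oocytes were dropped.

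The slope of *COX8A* was −0.12 ± 0.031 log2 units per 10 µm (adjusted p = 0.0062, edgeR). Within replicate 1 it was −0.13 ± 0.046 with an adjusted p of 0.0499 by edgeR, just inside the threshold of 0.05, and within replicate 2 it was −0.11 ± 0.043 with an adjusted p of 0.088. The fall from 70–109 µm to 110 µm and above had an edgeR adjusted p of 0.024. That call was lost in 8 of the 16 fits that each left out 1 sum, where the edgeR adjusted p reached 0.147 while the log2 value over all 16 stayed between −0.65 and −0.52. The 8 sums were 60–69 and 70–79 µm of replicate 2, 80–89 and 90–99 µm of replicate 1, and 110–119 and > 120 µm of both replicates. From < 60 to > 120 µm, the change was −0.85 ± 0.29 (edgeR adjusted p = 0.045), and this call was lost in 15 of the 16 such fits, all but the one without 70–79 µm of replicate 2. Without the replicate as a block, none of these calls of *COX8A* was made, with an edgeR adjusted p of 0.130 for the slope, 0.551 to 110 µm and above and 0.542 from < 60 to > 120 µm.

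**Figure D2:**
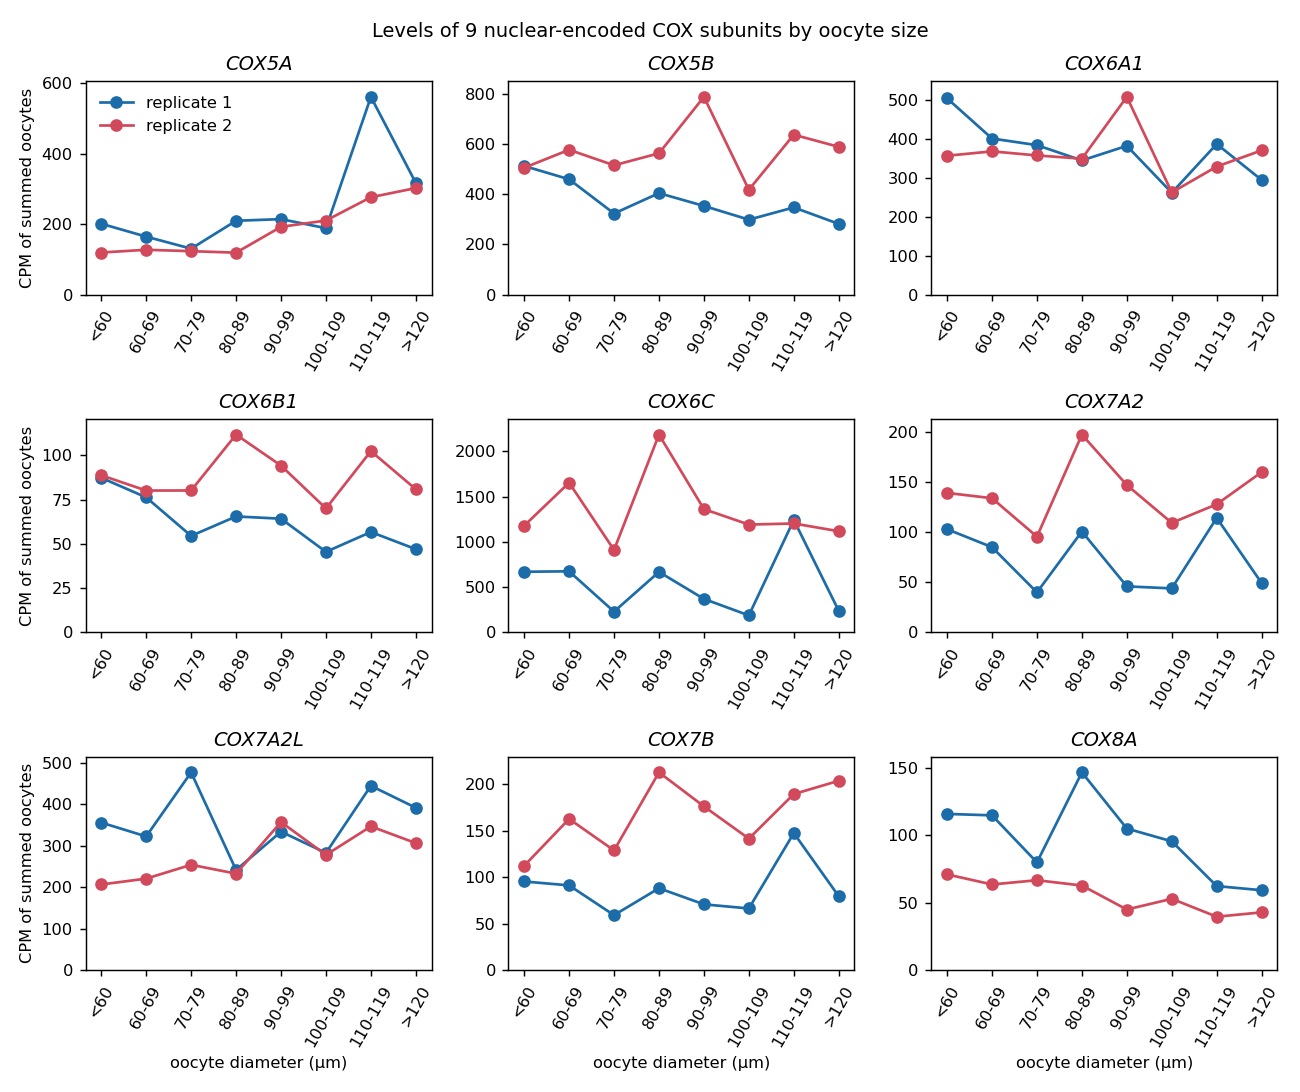
Level of each of the 9 members in CPM (y axes from 0, each with its own scale) in the summed oocytes of the 8 size groups in µm (x axis), with 1 point per group and replicate, joined by lines (blue, replicate 1; red, replicate 2). *COX5A* is highest in the 2 largest groups of both replicates and *COX8A* lowest there, and *COX6C*, *COX7A2* and *COX7B* dip at 70–79 µm in both replicates and lie higher in replicate 2, apart from *COX6C* at 110–119 µm of replicate 1, at 1243 CPM against 1204 CPM in replicate 2.

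Counted over the members, 2 of 9 passed the test for a slope on diameter, *COX5A* up and *COX8A* down, where 33% of all genes passed, 14.8% up and 18.1% down. In the comparison of 70–109 µm with 110 µm and above, the same 2 members passed, beside 14.8% of all genes, 7.08% up and 7.68% down. Between < 60 and > 120 µm it was again 2 of 9, beside 19.2%, 9.36% up and 9.8% down. None of 9 passed from < 70 to 70–109 µm, where 9.5% of all genes did, and 1 member, *COX7A2*, had an unadjusted p under 0.05, as did 3629 genes. The counts of members lie near these shares and show nothing particular to the members. The median slope was −0.03 per 10 µm for the members and −0.02 for all genes, and the median log2 difference between < 60 and > 120 µm was −0.37 and −0.12. No member was called for a slope that differed between the replicates, nor was any of all 14087 genes (0% called by edgeR), while *COX5B* among the members and 1527 genes had an unadjusted p under 0.05. DESeq2 called no member and 1.62% of the 7532 genes to which it gave an adjusted p. With single oocytes as units, 1 member, *COX5A*, was called, beside 10.6% of all genes.

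**Figure D3:**
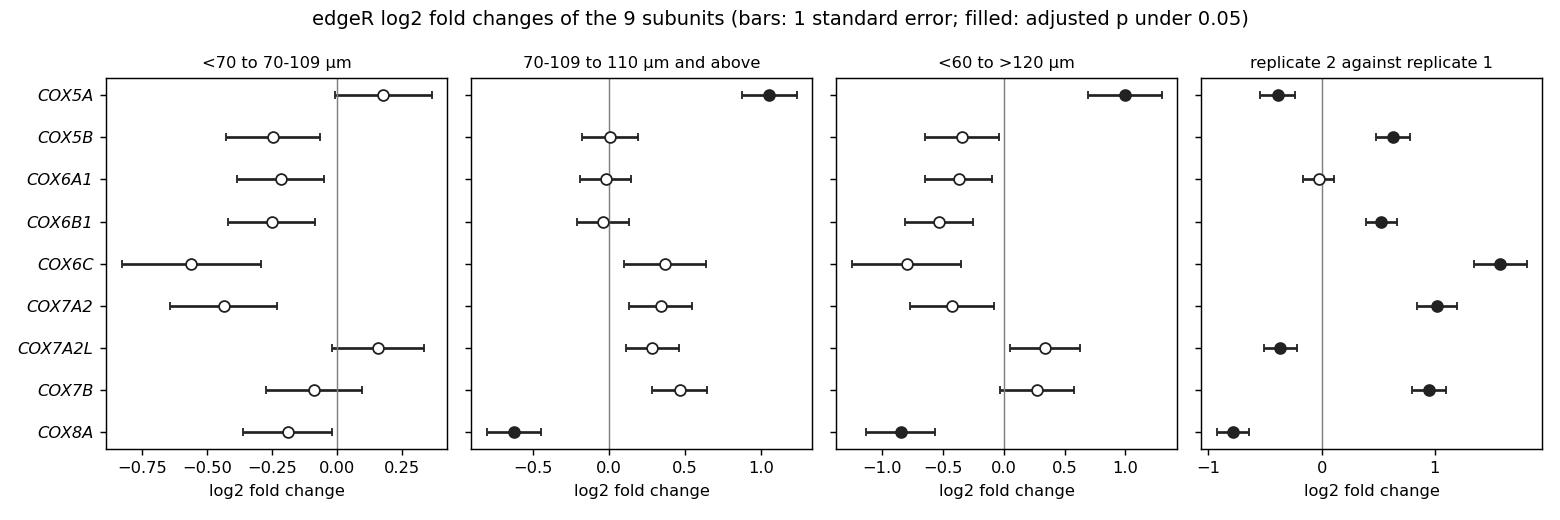
Log2 fold change of each member (x axis) in 3 comparisons of size and between the replicates, with bars of 1 standard error, filled where the edgeR adjusted p was under 0.05. *COX5A* and *COX8A* are the filled points in the size comparisons from 70–109 to 110 µm and above and from < 60 to > 120 µm, no point is filled from < 70 to 70–109 µm, and 8 of 9 are filled between the replicates.

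The 5 comparisons of successive groups, in which the study joined < 60 with 60–69 µm and 80–89 with 90–99 µm, called none of the 9 members by edgeR. The shares of all genes called were 0.135% from < 70 to 70–79 µm, 0% from 70–79 to 80–99 µm, 0.497% from 80–99 to 100–109 µm, 3.88% from 100–109 to 110–119 µm and 0.0071% from 110–119 to > 120 µm. At an unadjusted p under 0.05, the members numbered 2, 2, 4, 4 and 1 in the same order, and all genes 1063, 780, 2263, 3667 and 1564. DESeq2 on the same sums called 3 members from 100–109 to 110–119 µm, *COX5A*, *COX6C* and *COX7B*, and none in the other 4 comparisons. At that step it called 16.5% of the 11902 genes to which it gave an adjusted p. With edgeR, leaving out 1 sum also gave calls at that step: *COX5A* and *COX6C* without either sum of < 60 µm (8.07% and 8.1% of all genes) or without 100–109 µm of replicate 2 (9.94%), and *COX5A*, *COX6C*, *COX7A2* and *COX7B* without 110–119 µm of replicate 2 (9.74%). Without that last sum *COX6C* was also called from 110–119 to > 120 µm, beside 1.99% of all genes.

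Over these 5 comparisons, the sign of the members' median alternated. From < 70 to 70–79 µm, 8 of 9 members had a negative log2 difference, with a median of −0.35 beside 0.02 for all genes. From 70–79 to 80–99 µm, 8 of 9 were positive, with a median of 0.31 beside −0.06. From 80–99 to 100–109 µm, 8 of 9 were negative, with −0.52 beside −0.03, and from 100–109 to 110–119 µm, 8 of 9 were positive, with 0.48 beside −0.06. From 110–119 to > 120 µm, 8 of 9 were negative again, with −0.31 beside 0.02. In the same order, the shares of all genes with a positive difference were 51.9%, 44.0%, 48.0%, 47.7% and 50.9%. Successive comparisons share a group, so a group that lies low gives opposite signs on either side of it. The 5 comparisons are thus not independent of one another. Members also varied together among oocytes, so 8 of 9 signs are not 8 separate observations. Read within each replicate, 6 of 9 members were lower at 70–79 than at 60–69 µm in both replicates, where 26.8% of all genes were. At the step from 90–99 to 100–109 µm, 7 of 9 were lower in both, beside 30.3% of all genes, and at the step from 100–109 to 110–119 µm, 8 of 9 were higher in both, beside 30.1%. At the last step, from 110–119 to > 120 µm, the replicates differed: no member was higher in replicate 1 and 5 of 9 were higher in replicate 2, so that 4 of 9 were lower in both, beside 27.9% of all genes. From 70–79 to 80–89 µm, 5 of 9 were higher in both, beside 23.3%, and 2 were lower in both, beside 26.6%. The remaining steps were less uniform. From < 60 to 60–69 µm, 1 member was higher and 3 were lower in both, where 24.6% and 22.95% of all genes were. From 80–89 to 90–99 µm, 3 were higher and 5 lower in both, where 25.8% and 28.96% of all genes were.

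*COX6C* (ENSBTAG00000014130), a small nuclear-encoded subunit with a single membrane span, had a wide spread among single oocytes. In replicate 1, its levels from < 60 to > 120 µm were 670.1, 674.99, 229.4, 668.6, 369.9, 187.4, 1243 and 237.8 CPM. In replicate 2 they were 1179, 1655, 911.4, 2186, 1363, 1192, 1204 and 1118 CPM. The sum of 70–79 µm was the lowest of replicate 2 and below the sums of its neighbours in replicate 1. All 7 steps between neighbouring sizes had the same direction in both replicates, but some were near 0 in 1 of them. From < 60 to 60–69 µm the log2 step was 0.010 in replicate 1 and 0.49 in replicate 2. From 100–109 to 110–119 µm it was 2.72 and 0.015. For *COX5A* and for *COX8A*, 3 of 7 steps had the same direction in both replicates. The groups overlapped in all 7 pairs of neighbours in their order, from 70–79, 100–109, > 120, 90–99, < 60, 60–69 and 80–89 to 110–119 µm.

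Among single oocytes of replicate 1, the lowest, median and highest *COX6C* levels were 42.6, 587.7 and 1411 CPM at 60–69 µm, 60.7, 212.5 and 575.3 CPM at 70–79 µm, 44.2, 475.2 and 1176 CPM at 80–89 µm, 95.4, 243.3 and 393.1 CPM at 100–109 µm, 323.9, 924.2 and 2734 CPM at 110–119 µm and 72.8, 255.9 and 820.6 CPM at > 120 µm. The ranges of these groups overlapped. In replicate 2, they were 800.9, 1286 and 3579.6 CPM at 60–69 µm, 537.4, 739.2 and 1261 CPM at 70–79 µm, 378.6, 1954 and 4396 CPM at 80–89 µm, 400.3, 723.3 and 3238 CPM at 100–109 µm and 581.3, 1208 and 1562 CPM at 110–119 µm. The coefficient of variation over all oocytes, which pools both replicates and all sizes, was 93.1%, with 88.0% in replicate 1 and 66.8% in replicate 2.

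The difference in *COX6C* between 100–109 and 110–119 µm was 1.49 ± 0.46 (adjusted p = 0.065, edgeR). With each sum left out in turn, it ran from 0.36 to 2.29, the lowest without 110–119 µm of replicate 1 and the highest without 110–119 µm of replicate 2, and in 4 of the 16 fits, named above, the edgeR adjusted p fell under the threshold, to 0.0031 at the lowest. The depth of the oocytes differed too, with a median of 923622 counts at 100–109 µm and 1986086 at 110–119 µm, and *COX6C* had an r of 0.44 with the log10 of the oocyte's total count, the largest of the members. When each oocyte was thinned to 250000 counts, which also gives each oocyte the same weight, the difference was 1.24 with an edgeR adjusted p of 0.027. With no replicate block it was 0.83 (edgeR adjusted p = 0.883), and with all 179 oocytes 1.24 (edgeR adjusted p = 0.275). When single oocytes were taken as units, it was 1.57, and *COX6C* was then also called from < 70 to 70–79 µm, from 70–79 to 80–99 µm and from 110–119 to > 120 µm. That fit treats oocytes of 1 batch and perhaps 1 animal as independent, and a p-value from it measures only the spread between oocytes.

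*COX7A2* (ENSBTAG00000005096) and *COX7B* (ENSBTAG00000047768), 2 further small subunits with a membrane span, had profiles like that of *COX6C*, with r of 0.90 and 0.77 over the 16 sums. *COX7A2*, the form of its subunit found in most tissues, ranged over the groups from 39.96 to 114.3 CPM in replicate 1 and from 95.6 to 197.5 CPM in replicate 2. *COX7B* ranged from 59.1 to 147.4 CPM and from 112.2 to 212.7 CPM. Both were lower at 70–79 than at 60–69 µm and higher at 80–89 µm in both replicates. Their slopes were −0.02 ± 0.046 and 0.05 ± 0.036 per 10 µm, with edgeR adjusted p-values of 0.728 and 0.269. From 70–109 µm to 110 µm and above, the log2 difference of *COX7B* was 0.47 ± 0.18 (edgeR adjusted p = 0.094). It was called by DESeq2 (adjusted p = 0.047), by edgeR with 250000 counts per oocyte (adjusted p = 0.025) and with single oocytes as units, and also without 110–119 µm of replicate 2 and without either sum of < 60 µm. That of *COX7A2* was 0.34 ± 0.21 (edgeR adjusted p = 0.293).

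*COX5B* (ENSBTAG00000053107), the zinc-binding subunit on the matrix side, *COX6A1* (ENSBTAG00000012788), the form of subunit 6A found outside heart and skeletal muscle, and *COX6B1* (ENSBTAG00000055082), which lies on the intermembrane side where the monomers of the enzyme dimer meet, had no slope that passed over both replicates. *COX5B* ranged from 281.8 to 512.6 CPM in replicate 1 and from 417.9 to 787.97 CPM in replicate 2. *COX6A1* ranged from 261.3 to 503.5 and from 262.1 to 507.3 CPM, and *COX6B1* from 45.5 to 87.3 and from 70.01 to 111.7 CPM. All 3 were lowest at 100–109 µm once the mean of each replicate was removed. Their slopes per 10 µm were −0.04 ± 0.031, −0.05 ± 0.030 and −0.05 ± 0.030, with edgeR adjusted p-values of 0.349, 0.242 and 0.169. Within replicate 1, *COX6B1* had a slope of −0.11 ± 0.038 (edgeR adjusted p = 0.044), and within replicate 2 it was 0.0013 ± 0.038 (edgeR adjusted p = 0.989). The difference between these slopes was not called (0.11 ± 0.054, edgeR adjusted p = 0.472), and over single oocytes the r of *COX6B1* with diameter stood the other way, at −0.03 in replicate 1 and −0.19 in replicate 2. With all 179 oocytes, the slope of *COX6B1* over both replicates was −0.13 and passed (edgeR adjusted p = 0.029).

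*COX7A2L* (ENSBTAG00000000705) encodes a relative of the 7A subunits that takes part in joining complex IV to complex III. Its levels from < 60 to > 120 µm were 355.9, 322.5, 476.98, 241.5, 333.97, 282.8, 444.6 and 391.6 CPM in replicate 1 and 206.6, 220.7, 254.1, 232.7, 357.1, 277.9, 346.6 and 306.4 CPM in replicate 2. The groups overlapped in all 7 pairs of neighbours. The r with diameter was 0.33 over the oocytes, with 0.33 and 0.34 within the replicates. The slope over the sums was 0.05 ± 0.032 (edgeR adjusted p = 0.211), and with each oocyte thinned to 250000 counts it was 0.08 with an edgeR adjusted p of 0.011. From < 60 to > 120 µm its log2 difference was 0.34 (edgeR adjusted p = 0.444), and 0.62 with single oocytes as units (edgeR adjusted p = 0.0061). The r of the other 6 members with diameter, apart from *COX5A* and *COX8A*, lay between −0.10 for *COX6B1* and 0.22 for *COX7B*, and in *COX6A1*, *COX6C* and *COX7A2* it was positive within replicate 1 and negative within replicate 2.

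More members differed between the replicates than between sizes. Of the 9 members, 8 differed between replicate 2 and replicate 1 with size taken into account, where 57.7% of all genes did, 25.9% higher and 31.7% lower in replicate 2. In replicate 2, *COX6C* was higher by 1.58 ± 0.23 on the log2 scale, *COX7A2* by 1.02 ± 0.17, *COX7B* by 0.95 ± 0.15, *COX5B* by 0.63 ± 0.15 and *COX6B1* by 0.53 ± 0.14. The edgeR adjusted p-values of these 5 ranged from 1.1e-05 to 0.0032. Lower in replicate 2 were *COX8A*, at −0.78 ± 0.14 (edgeR adjusted p = 1.1e-04), *COX5A*, at −0.39 ± 0.15 (0.035), and *COX7A2L*, at −0.37 ± 0.15 (0.038). The last 2 calls did not hold with RLE scaling, where the edgeR adjusted p-values were 0.062 and 0.070, and were lost in 12 and 11 of the 16 fits that left out 1 sum. With all 179 oocytes, the call of *COX6B1* was lost, at 0.35 (edgeR adjusted p = 0.137). *COX6A1* showed no difference that passed, at −0.02 ± 0.14. Over all genes, the median was −0.16. The library batch, the read length and the cows cannot be told apart in this contrast.

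Most pairs of members varied together from oocyte to oocyte, and r was not computed for pairs of genes outside the members. With the mean of each size group and replicate removed, the r of log2(CPM + 1) over the 97 and 68 oocytes lay between 0.03 and 0.86 over the 36 pairs, with a median of 0.49 and no negative pair. The highest was that of *COX5B* with *COX6B1*, followed by *COX5B* with *COX6A1* at 0.84 and *COX6A1* with *COX6B1* at 0.75. Values were also high among *COX6C*, *COX7A2* and *COX7B*, at 0.68, 0.65 and 0.73. The lowest values were those of *COX7A2L* with *COX6C*, *COX8A* and *COX7A2*, from 0.03 to 0.07. The points share their libraries, the depth and quality of each oocyte's cDNA and the scaling, and the r of the members with the log10 of the total count ran from −0.06 for *COX7A2L* to 0.44 for *COX6C*.

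Over the 16 sums with the mean of each replicate removed, the pairs spread wider, from −0.83 to 0.90, with 9 of 36 negative. *COX6C* and *COX7A2* had the highest value. *COX8A* had the lowest, with *COX7A2L*, and −0.71 with *COX5A*, although the r of *COX5A* and *COX8A* among oocytes of the same group was 0.26.

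**Figure D4:**
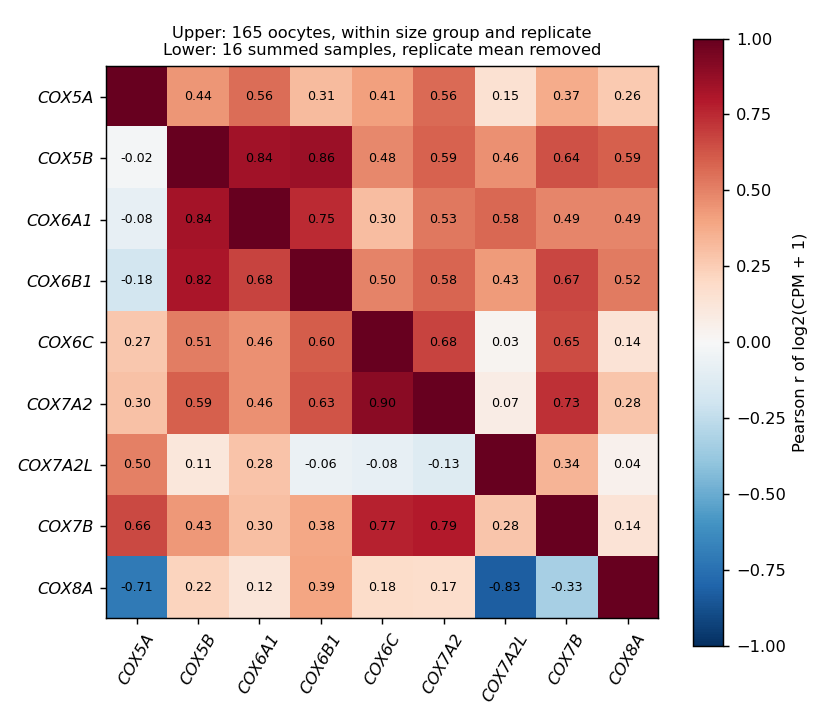
Pearson's r of log2(CPM + 1) for each pair of members, above the diagonal over the 97 and 68 oocytes with the mean of each size group and replicate removed, and below it over the 16 sums with the replicate mean removed (red, positive; blue, negative). All 36 values above the diagonal are positive, and the blue cells below it stand in the rows of *COX8A* and *COX7A2L* and the column of *COX5A*.

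Outside the members, the 2 genes with a symbol whose profile over the 16 sums was most like each member, among 2927 compared, were the following. For *COX5B* they were *COX7A1* (r = 0.91), the muscle form of subunit 7A, and *ATP5ME* (0.86), a subunit of ATP synthase. For *COX6C* they were *ATP5PD* (0.92) and *ATP5F1E* (0.90), both of ATP synthase, and for *COX7A2* *ATP5F1E* (0.92) and *CT83* (0.88). *COX6A1* had *ASAP1* (0.87) and *COX7A1* (0.85), and *COX7B* had *COMMD6* (0.92) and *CT83* (0.89). For *COX5A*, 1 gene is given, *CNIH4* (0.94), and *COX8A* had *ABCA3* (0.89) and *BRI3* (0.88). *COX6B1* had *ARHGAP12* (0.90) and *BRWD1* (0.84), and *COX7A2L* had *CCNB1* (0.84), cyclin B1, and *ACBD3* (0.82). The likeness over sums did not always stand among single oocytes: for *COX6B1* the r with these genes was −0.17 and −0.26 over all oocytes, and for *COX6A1* with *ASAP1* it was −0.03, whereas for *COX5B* it was 0.85 and 0.79. The highest of 2927 values over 16 points is high by selection, and these are descriptions.

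The core of the enzyme is encoded by the mitochondrial genome, and 2 of its genes were measured. *COX2*, the subunit that takes up electrons from cytochrome c, had levels from < 60 to > 120 µm of 2886, 1982, 988.2, 1349, 1111, 330.6, 1550.0 and 371.6 CPM in replicate 1 and 2126, 2295, 1493, 2036, 1312, 1019.7, 826.5 and 624.4 CPM in replicate 2. It fell with diameter, with a slope of −0.26 ± 0.052 per 10 µm (edgeR adjusted p = 6.3e-04), and its log2 difference from < 60 to > 120 µm was −2.40 ± 0.44 (edgeR adjusted p = 0.0011). *COX1*, which holds the site where oxygen is reduced, had a slope of −0.11 ± 0.060 that did not pass (edgeR adjusted p = 0.165). Its levels ranged from 1024 to 5077 CPM in replicate 1 and from 1786 to 5635 CPM in replicate 2. The slope of *COX2* was below that of each of the 9 members, the lowest of which was that of *COX8A*, but the difference between the slopes of 2 genes was not tested. *COX1* passed without 110–119 µm of replicate 1 (edgeR adjusted p = 0.027), with 250000 counts per oocyte (0.019), with all 179 oocytes (0.032) and with single oocytes as units. The study left out oocytes with a high share of mitochondrial reads, a filter that can act on these 2 genes.

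**Figure D5:**
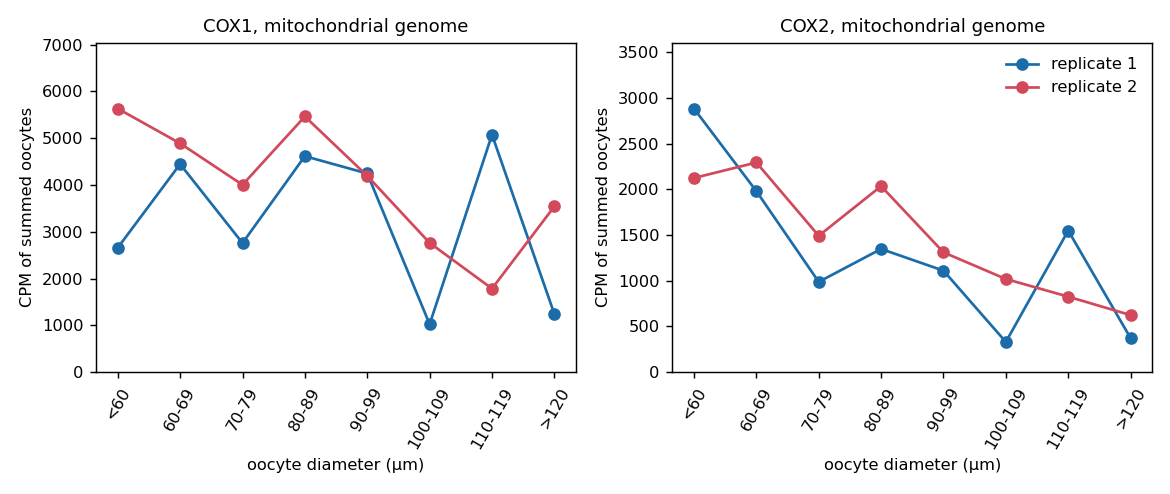
Level of *COX1* and *COX2* in CPM (y axes from 0) in the summed oocytes of the 8 size groups in µm (x axis), 1 point per group and replicate, joined by lines (blue, replicate 1; red, replicate 2). In replicate 1, both drop at 100–109 µm, to 1024 and 331 CPM, are high at 110–119 µm and drop again at > 120 µm, while in replicate 2 *COX2* goes down from 60–69 µm apart from a rise at 80–89 µm.

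The factors that assemble the enzyme were measured by 16 genes, a list chosen with earlier results of these data known. Over the slope on diameter, 1 of 16 rose and 3 fell, with a median of −0.03 per 10 µm beside −0.02 for all genes and 33% of all genes called. *CMC2*, a small protein with paired cysteine motifs, rose by 0.22 ± 0.049 per 10 µm (edgeR adjusted p = 0.0016). *COA1*, which acts early in assembly, *COA8* and *COX10*, the enzyme that makes heme O, fell by 0.15 ± 0.031, 0.16 ± 0.039 and 0.12 ± 0.039 (edgeR adjusted p = 9.2e-04, 0.0035 and 0.018). From 70–109 µm to 110 µm and above, 4 of 16 rose and none fell, where 14.8% of all genes were called, 7.08% up and 7.68% down: *CMC2* by 1.47 ± 0.21 and, named after their values were seen, *CMC1* by 1.00 ± 0.25, *COA4* by 0.91 ± 0.22 and *COX15* by 0.73 ± 0.22. The call of *CMC1* was lost without 110–119 µm of replicate 1 (edgeR adjusted p = 0.156), that of *COX15* in 5 of the 16 fits that left out 1 sum, and the slope of *COX10* in 4 of them and with 250000 counts per oocyte (edgeR adjusted p = 0.052). The median of the 16 was 0.08 beside −0.07 for all genes.

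Of the 14 nuclear genes of ATP synthase, the enzyme that uses the proton gradient, 1 rose and 1 fell with diameter, where 33% of all genes were called, 14.8% up and 18.1% down. They encode the same c subunit of the rotor: *ATP5MC1* rose by 0.13 ± 0.031 per 10 µm (edgeR adjusted p = 0.0027) and *ATP5MC2* fell by 0.20 ± 0.030 (edgeR adjusted p = 3.6e-05). With all 179 oocytes the call of *ATP5MC1* was lost (edgeR adjusted p = 0.057). The median slope of the 14 was −0.02. *ATP5F1A* and *ATP5F1B*, the alpha and beta subunits of the catalytic head, had slopes of −0.07 ± 0.033 and −0.07 ± 0.039 that did not pass. Both passed with 250000 counts per oocyte (edgeR adjusted p = 0.026 and 0.039) and with single oocytes as units. Between replicates, 6 of the 14 were higher and 4 lower in replicate 2, beside 57.7% of all genes called, 25.9% higher and 31.7% lower. Of the forms of complex IV subunits known from other tissues, *COX7A1* of muscle had a slope of −0.08 ± 0.036 (edgeR adjusted p = 0.082) and *COX6B2* of testis one of −0.03 ± 0.10 (edgeR adjusted p = 0.842). The slope of *COX7A1* passed with all 179 oocytes (edgeR adjusted p = 0.022).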

How the data were processed

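Per the study's methods, the authors trimmed reads with Trim Galore 0.6.6, mapped them to ARS-UCD1.2 with HISAT2 and deposited raw read counts per gene from SeqMonk, unnormalised and with 1 column per oocyte. How multi-mapping reads and strand were treated was not given in the sources used here, so reads of near-identical copies of a member remain uncertain. The 23161 lines of the table were summed to 21218 gene IDs. Of 179 oocytes, the 14 outside the study's final set were left out. Counts were summed by size group and replicate and tested with edgeR 4.0.16 (filterByExpr, TMM, the 8 groups with the replicate as a block, quasi-likelihood test, Benjamini-Hochberg over all 14087 genes, threshold 0.05) in R 4.3.3. A member that was not called is not thereby shown to be unchanged. The slope used the mean diameter of each sum. Replicates were library batches, and the sums of a replicate deviated together, with r of 0.576 to 0.836 over the 28 pairs of groups. P-values measure the spread between sums, which may be technical. Alternatives used DESeq2 1.42.0, RLE scaling, no filter, no block, ComBat-seq counts (sva 3.50.0), single oocytes, 250000 counts per oocyte and all 179 oocytes. The members and lists were chosen with earlier results of these data known. Besides the members, the genes named were at most 4 per list with the smallest p for the slope, and the 2 genes most like each member, of which 1 for *COX5A* is not reported here. Outside this rule, the markers that check the cell type were named, and *CMC1*, *COA4* and *COX15* after their values were seen.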

Additional observations from a re-analysis of the deposited data

Results flagged for a closer look

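In the 14 oocytes outside the study's final set, which entered only the fits with all 179 oocytes, the 9 members held 126562 of 18748662 counts. The value is given because the main fits left these oocytes out, and it has no test. The totals of these oocytes ran from 10 to 4933709 counts, 7 of them had counts of all 9 members, and 1 had none.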

How the results depend on the processing

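The slopes of *COX5A* and *COX8A* on diameter kept their direction under every alternative tried, and both passed the edgeR or DESeq2 test in all but the fit with no replicate block, where *COX8A* did not. With no replicate block, the number of members called was 0 from 70–109 µm to 110 µm and above, 0 from < 60 to > 120 µm and 1 for the slope, beside 0.149%, 0.575% and 15.6% of all genes. In the same fit the calls of *CMC2*, *CMC1*, *COA4* and *COX15* to 110 µm and above, of *COX2* from < 60 to > 120 µm and of the slopes of *COA8* and *COX10* were lost, with adjusted p-values of 0.062 to 0.761. With single oocytes as units, the number of members was 2 from < 70 to 70–79 µm, 3 from 70–79 to 80–99 µm, 5 from 100–109 to 110–119 µm, 1 from 110–119 to > 120 µm, 3 from < 70 to 70–109 µm, 6 to 110 µm and above, 3 from < 60 to > 120 µm, 4 for the slope and 1 for the slope difference, and the shares of all genes called by that fit were 7.8%, 2.66%, 37%, 4.71%, 39%, 46.4%, 40.5%, 57.7% and 10.6%. With ComBat-seq counts of single oocytes, it was 2, 2, 5, 1, 3, 6, 3 and 4 in that order, without the slope difference, beside 8.28%, 1.89%, 38.1%, 6.46%, 39%, 45.4%, 41.4% and 56.8% of all genes. From 100–109 to 110–119 µm it was 3 with DESeq2, 2 with no filter and 1 with 250000 counts per oocyte, beside 16.5%, 7.33% and 7% of all genes. Each share in this section is of the genes with an adjusted p in the fit named. From < 60 to > 120 µm it was 1 with RLE scaling, with no filter and with 250000 counts (19%, 15.2% and 24.8% of all genes), and 4 with all 179 oocytes (18.5%), where *COX6B1* and *COX6C* were also called. To 110 µm and above it was 3 with DESeq2 and with 250000 counts (19.8% and 24.8%), and for the slope 3 with 250000 counts and with all 179 oocytes (38.5% and 32%). Between replicates it was 6 with RLE scaling and 7 with all 179 oocytes (57.4% and 56.6%). With each sum left out in turn, the number ran from 1 to 3 to 110 µm and above. It was 2 for the slope and ran from 6 to 8 between replicates. In the same order, the shares of all genes called ran from 6.64% to 16.1%, 26.5% to 32.8% and 50.4% to 55.7%. No range is given from 100–109 to 110–119 µm, from 110–119 to > 120 µm and from < 60 to > 120 µm. There, some of these fits left 1 sum in a group compared.

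Changes of sign were all in genes not called in that comparison with all 16 sums. To 110 µm and above, *COX6A1* was 0.027 with RLE and with DESeq2, 0.13 with single oocytes, 0.16 with ComBat-seq, 0.075 with 250000 counts and 0.11 with all 179 oocytes, and *COX6B1* was 0.0089, 0.0084, 0.011, 0.042, 0.0025 and 0.016 in that order. From < 60 to > 120 µm, *COX5B* was 0.0098 with single oocytes and 0.058 with ComBat-seq, *COX6A1* was 0.049 with ComBat-seq and *COX7B* was −0.50 with all 179 oocytes. From < 70 to 70–109 µm, *COX7B* was 0.016 with no replicate block. The slope with ComBat-seq was 1.9e-05 for *COX6A1*, 0.0090 for *COX6C* and 2.8e-04 for *COX7A2*, that of *COX7B* was −0.016 with all 179 oocytes, and that of *COX6B2* was 0.026 with no replicate block. Between replicates, *COX6A1* was 0.024 with RLE and with DESeq2. With each sum left out in turn, the log2 difference to 110 µm and above ran from −0.060 to 0.14 for *COX5B*, −0.087 to 0.098 for *COX6A1*, −0.074 to 0.048 for *COX6B1* and −0.20 to 0.79 for *COX6C*. From < 60 to > 120 µm it ran from −0.58 to 0.083 for *COX5B* and −0.0041 to 0.74 for *COX7B*, and from < 70 to 70–109 µm from −0.23 to 0.15 for *COX7B*. The slope ran from −0.12 to 0.018 for *COX6C*, −0.053 to 0.012 for *COX7A2* and −0.076 to 0.038 for *COX6B2*, and the difference between replicates from −0.055 to 0.066 for *COX6A1*. The cause was not tested.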
